A study of Mus musculus with 19 samples.

Results

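The list described here is fixed by name and was chosen with earlier results of these data known. It holds 48 mitosis and spindle genes, followed over 19 Affymetrix arrays of sorted mouse CD4+ T cells. Of these, 47 had a probe set annotated with that symbol alone, and 46 reached log2 4 on at least 2 arrays and were tested among 9930 genes. Ccnb1, the partner cyclin of Cdk1, had no such probe set and was not analysed here, and the kinesin Kif15 stayed below the filter. Where a gene had several probe sets, the one with the highest mean over all arrays was used. Values are log2 expression values as the authors deposited them, with a floor near log2 2.

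The arrays fall into 6 groups, and 1 array was hybridised per sorted sample. YFP-positive cells (n = 4, of which 1 at day 10 and 3 at day 7) were CXCR5hi PD-1hi cells that carried the BCL6-YFP reporter signal. YFP-negative cells (n = 4, of which 2 at day 10 and 2 at day 7) were CXCR5hi PD-1hi cells without that signal. CXCR5lo PD-1lo cells (n = 3) were all from day 7. Unseparated CXCR5hi PD-1hi cells came from the genotypes Bcl6yfp/+ (n = 3, all day 7) and Bcl6+/+ (n = 3, of which 2 at day 10 and 1 at day 7). Naive cells (n = 2) were CD44lo CD62Lhi cells from the spleen of unimmunized mice. All mice were C57BL/6J. Per the labels, OT-II T cells, whose transgenic receptor sees an ovalbumin peptide, carried the Bcl6yfp/+ allele and were put into congenic hosts, which received NP-OVA in complete Freund's adjuvant under the skin, and draining lymph nodes were taken after 7 or 10 days. That text is given for every sample and may not describe the naive or the Bcl6+/+ cells. The groups are defined by surface markers and by the reporter, and the labels do not say how many mice stand behind an array. The p-values therefore measure no more than the spread among these arrays, which may be technical, and the number of arrays limits the precision.

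A dividing cell condenses its chromosomes, attaches each one through its kinetochore to spindle microtubules, separates the sister chromatids once the spindle checkpoint is satisfied, and splits in cytokinesis. CDK1 with the B-type cyclins starts this sequence, Aurora and Polo-like kinases steer it, and the anaphase-promoting complex ends it by marking cyclin B and securin for destruction. The transcripts of most of these proteins are made in the G2 and M phases and are low in resting cells, so that in lymphocytes they are widely read as a mark of dividing cells. Follicular helper T (Tfh) cells, which express CXCR5, PD-1 and the repressor BCL6, arise from T cells that have divided after priming.

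The deposited columns did not share 1 distribution, and arrays with nearly the same distribution formed 7 sets. Both YFP groups and the CXCR5lo PD-1lo cells shared sets 1, 2 and 3 by replicate number, and both replicates 4 were in set 4 together with naive replicate 1. The first Bcl6yfp/+ array was in set 5 with naive replicate 2, arrays 2 and 3 of either Bcl6 genotype made up set 6, and the first Bcl6+/+ array was alone in set 7. T cell identity genes averaged log2 13.3 to 14.2 on every array, and 9 of 13 B cell genes, among them Cd79a, Ms4a1 and Pax5, lay at 3.10 or below on every array, while 2 to 4 of the 13 reached log2 4 on each. The other four were Pou2af1, Cd22, Cd79b and H2-Ob. In YFP-positive cells, against CXCR5lo PD-1lo cells, Cd22 was higher by log2 7.335 (SE 0.59, adjusted p = 2.41e-07) and Pou2af1 by 1.627 (SE 0.287, adjusted p = 0.00108), and Cd79b was lower (-2.913, SE 0.189, adjusted p = 2.09e-08), and the part of B cell transcripts in the results was not tested. YFP-negative replicate 1 also carried transcripts of other cells, with S100a9 at 12.1, S100a8 at 10.3, Lyz2 at 10.98 and Jchain at 12.4, where the other arrays had S100a9 at 2.72 or below. On the summed lists, 4 of 15 myeloid genes reached log2 4 on that array against 0 to 2 on the others, and 6 of 11 germinal centre B and plasma cell genes against 3 to 5. Xist was high on the day 7 arrays of both YFP groups, on all CXCR5lo PD-1lo arrays and on naive replicate 1, and Y-linked transcripts were high on all other arrays, so that in the YFP groups day and sex-linked transcripts cannot be told apart. Arrays of set 6 lay closer together than any other arrays, with an SD of the difference over genes of 0.27 to 0.36, and are labelled as separate samples. Pairs of them had identical values for 6.27% to 7.93% of genes, and the pair of set 5 for 8.88%. All other pairs of arrays had 0.242% or less. Whether the samples of set 6 are independent was not tested.

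The mitotic genes were among the most variable of all genes tested. Their median SD over the 19 arrays was 2.37 log2 units, against 0.52 for all genes, and 2.22% of all genes had an SD at or above that of the median member. The group mean was highest in YFP-positive cells for 42 genes and in Bcl6+/+ cells for Cdc25b, Pttg1, Incenp and Cenpa, and it was lowest in naive cells for 44, the exceptions being Pttg1 (lowest in YFP-positive cells) and Kif23 (lowest in CXCR5lo PD-1lo cells). Averaged over the 46 genes, YFP-positive arrays stood at 8.82 at day 10 and 11.60, 10.7 and 11.66 at day 7, and YFP-negative arrays at 6.96 and 6.02 at day 10 and 9.06 and 9.52 at day 7. CXCR5lo PD-1lo arrays stood at 10.04, 7.37 and 6.39, Bcl6yfp/+ arrays at 8.97, 8.89 and 9.01, Bcl6+/+ arrays at 10.07 and 8.78 at day 10 and 9.004 at day 7, and naive arrays at 4.50 and 4.85. Within each day the YFP-positive arrays were above all YFP-negative arrays, but the YFP-positive array of day 10 was below both YFP-negative arrays of day 7. The naive arrays were the lowest of all. In bulk samples, fewer dividing cells and less RNA per cell cannot be told apart.

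**Figure D1:**
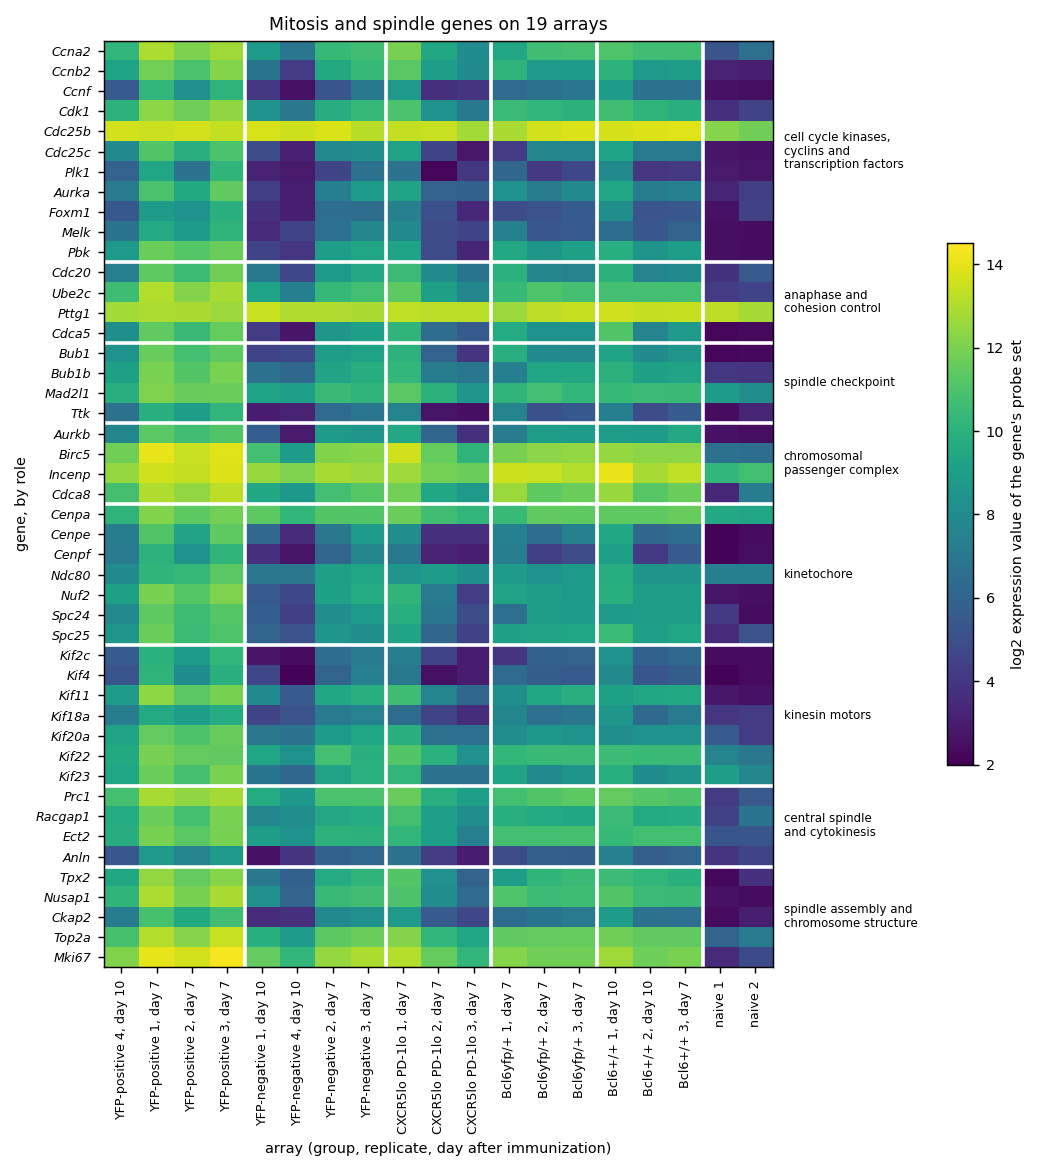
Heat map of the deposited log2 value of 46 mitosis and spindle genes (lines, by role) on 19 arrays (columns, by group and day, with the naive arrays last). Most genes are highest on the 3 YFP-positive arrays of day 7 and lowest on the 2 naive arrays, while Pttg1 and Cdc25b are high on every array.

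**Figure D2:**
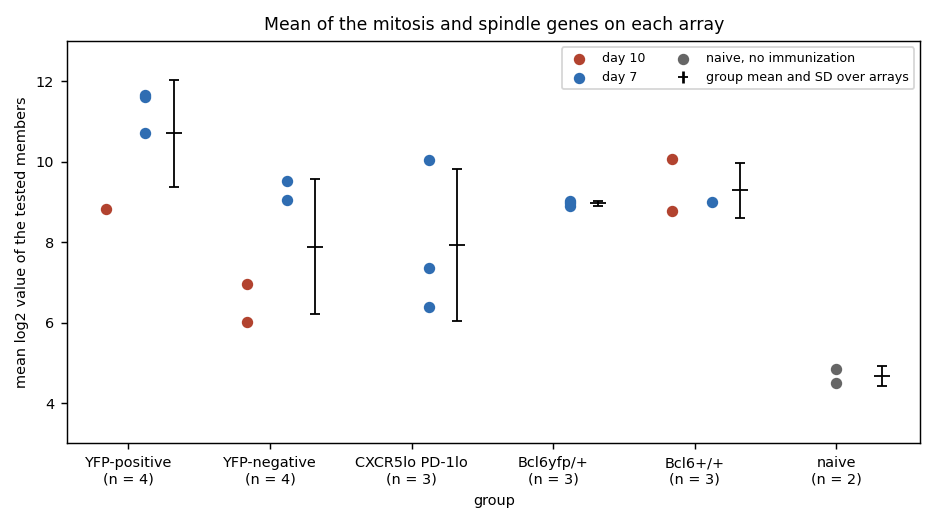
Mean log2 value over the 46 genes on each array (points, coloured by day), by group, with the group mean and SD as bars. YFP-positive arrays average 10.70 with an SD of 1.33 (n = 4), YFP-negative arrays 7.89 with an SD of 1.67 (n = 4), and the 2 naive arrays stand lowest.

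The kinases, cyclins and the transcription factor FOXM1 that drive entry into mitosis showed this order clearly. Cdk1, the kinase that triggers mitosis, had 10.06 at day 10 and 12.35, 11.79 and 12.42 at day 7 in YFP-positive cells, against 8.43 and 7.00 at day 10 and 9.77 and 10.33 at day 7 in YFP-negative cells. It had 10.96, 8.44 and 7.05 in CXCR5lo PD-1lo cells, 10.54, 10.27 and 10.01 in Bcl6yfp/+ cells, 10.68 and 10.11 at day 10 and 9.85 at day 7 in Bcl6+/+ cells, and 3.74 and 4.55 in naive cells. The 3 highest Cdk1 arrays were the YFP-positive ones of day 7, the YFP groups overlapped through the YFP-positive array of day 10, and naive arrays were far below all others. Ccnb2, a B-type cyclin and activating partner of CDK1, had 9.26 at day 10 and 11.85, 10.91 and 12.18 at day 7 in YFP-positive cells, against 6.83 and 4.23 at day 10 and 9.59 and 10.36 at day 7 in YFP-negative cells. Its CXCR5lo PD-1lo arrays held 11.31, 8.96 and 8.03, and its naive arrays 3.22 and 3.05. CXCR5lo PD-1lo replicate 1 reached the level of the YFP-positive arrays, so that the groups overlapped. Ccna2, a cyclin of S and G2 phase, ranged over 10.25 to 12.97 in YFP-positive cells and 6.92 to 10.69 in YFP-negative cells. The mitotic kinase genes Plk1 (5.91 to 10.16 in YFP-positive and 2.92 to 6.65 in YFP-negative cells) and Aurka (7.22 to 11.43 and 3.06 to 8.88 in the same order) had wide ranges that overlapped between the groups. Foxm1, which encodes an activator of G2 and M phase genes, had 5.44 at day 10 and 8.90, 8.41 and 9.93 at day 7 in YFP-positive cells, against 3.77 and 3.06 at day 10 and 6.52 and 6.44 at day 7 in YFP-negative cells. The single day 10 array of the YFP-positive group was therefore below the day 7 arrays of the YFP-negative group for Foxm1.

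Promoters of these genes are known to carry a pair of elements, the cell cycle homology region, bound by the DREAM repressor complex in resting cells and by complexes with B-MYB and FOXM1 in dividing ones, and CCAAT boxes bound by NF-Y. RefSeq promoters of mouse assembly GRCm38.p6, from 250 bases before to 50 bases after the gene start, were matched for 37 of the 46 genes and searched on both strands for TTTGAA, a core of the first element, and CCAAT. At least 1 TTTGAA stood in the promoters of 27 of the 37 genes (73.0%), against 14.2% of the 8147 tested genes with a promoter. It lay within 50 bases of the start for 64.9% of the genes, against 3.85% of all tested genes. CCAAT stood in 70.3%, against 43.5% of all, and both strings together in 62.2%, against 5.81%. The related string TTCGAA stood in 10.8%, against 2.61% of all. Of the E2F-type strings, TTGGCGC stood in 13.5%, against 5.23% of all, and TTCCCGC in 0 of 37, against 10.1% of all. A DNA replication list differed in some strings, with TTTGAA in 15.6%, TTGGCGC in 28.1% and TTCCCGC in 37.5% of its 32 genes with a promoter. Its share with CCAAT, 62.5%, was near that of the mitotic genes. Of the genes with a matched promoter, Birc5, Mad2l1, Melk, Nuf2, Nusap1 and Pttg1 held none of these strings in the window. The promoters printed here show the arrangement in 4 genes that hold both strings and in 2 that hold neither; they run 5′ to 3′ in the direction of the gene, and capitals mark TTTGAA and CCAAT or their reverse complements.
Ccnb2 (chr9:70421505-70421804, minus strand): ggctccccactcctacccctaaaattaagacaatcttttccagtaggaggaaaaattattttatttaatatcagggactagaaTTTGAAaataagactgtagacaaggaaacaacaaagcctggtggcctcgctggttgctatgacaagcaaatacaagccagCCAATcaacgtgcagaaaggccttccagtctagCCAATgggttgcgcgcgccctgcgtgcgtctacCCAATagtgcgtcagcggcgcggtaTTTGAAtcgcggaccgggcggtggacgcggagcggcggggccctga
Cdk1 (chr10:69352863-69353162, minus strand): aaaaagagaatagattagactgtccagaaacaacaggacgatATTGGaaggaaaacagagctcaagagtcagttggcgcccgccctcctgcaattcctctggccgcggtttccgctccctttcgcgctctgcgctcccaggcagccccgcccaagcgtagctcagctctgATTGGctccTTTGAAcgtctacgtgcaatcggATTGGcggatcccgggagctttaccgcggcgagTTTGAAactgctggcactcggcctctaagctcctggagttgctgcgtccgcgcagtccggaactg
Plk1 (chr7:122159185-122159484, plus strand): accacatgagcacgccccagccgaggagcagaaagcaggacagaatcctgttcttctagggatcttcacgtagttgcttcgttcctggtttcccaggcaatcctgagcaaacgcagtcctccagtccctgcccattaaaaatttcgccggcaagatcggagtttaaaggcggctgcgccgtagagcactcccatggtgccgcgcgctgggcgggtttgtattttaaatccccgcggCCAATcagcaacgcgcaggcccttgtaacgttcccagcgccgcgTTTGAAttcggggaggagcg
Kif11 (chr19:37376132-37376431, plus strand): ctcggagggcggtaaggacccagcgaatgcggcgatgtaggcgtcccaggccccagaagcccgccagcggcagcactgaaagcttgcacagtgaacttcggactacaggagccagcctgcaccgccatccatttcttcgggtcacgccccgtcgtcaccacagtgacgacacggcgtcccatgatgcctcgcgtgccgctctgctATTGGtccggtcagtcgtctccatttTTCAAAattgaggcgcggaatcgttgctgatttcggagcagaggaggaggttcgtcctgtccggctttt
Birc5 (chr11:117848987-117849286, plus strand): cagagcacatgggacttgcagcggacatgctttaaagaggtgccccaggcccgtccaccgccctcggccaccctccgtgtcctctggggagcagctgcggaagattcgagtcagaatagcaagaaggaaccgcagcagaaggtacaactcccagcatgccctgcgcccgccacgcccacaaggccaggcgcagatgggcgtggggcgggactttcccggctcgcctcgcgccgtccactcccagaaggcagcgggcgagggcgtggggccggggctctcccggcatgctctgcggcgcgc
Pttg1 (chr11:43425932-43426231, minus strand): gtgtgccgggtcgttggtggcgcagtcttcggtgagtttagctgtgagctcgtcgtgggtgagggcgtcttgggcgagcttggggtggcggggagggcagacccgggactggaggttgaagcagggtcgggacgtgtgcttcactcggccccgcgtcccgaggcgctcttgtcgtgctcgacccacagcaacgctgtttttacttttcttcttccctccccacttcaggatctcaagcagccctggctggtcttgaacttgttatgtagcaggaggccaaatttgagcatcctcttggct
Ccnb2 and Cdk1 each held 2 TTTGAA and 3 CCAAT, and Plk1 and Kif11 1 of each. Birc5 held neither string yet followed the other genes across the arrays, and Pttg1 held neither and did not follow them. A match of letters is a description and not a shown binding site.

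Genes that control anaphase and sister cohesion split in 2 ways. Ube2c, the ubiquitin-conjugating enzyme of the anaphase-promoting complex, had 10.62 at day 10 and 13.08, 12.20 and 12.86 at day 7 in YFP-positive cells, against 9.24 and 7.39 at day 10 and 10.33 and 10.72 at day 7 in YFP-negative cells. Its CXCR5lo PD-1lo arrays held 11.41, 9.08 and 7.80, and its naive arrays 4.22 and 4.50. All YFP-positive arrays of day 7 were above every other array for Ube2c. Cdc20, an activator of the same complex, ranged over 7.45 to 11.78 in YFP-positive, 4.73 to 9.55 in YFP-negative and 6.84 to 10.51 in CXCR5lo PD-1lo cells. Cdca5, which encodes sororin, a protector of sister cohesion, had 8.23 at day 10 and 11.45, 10.40 and 11.54 at day 7 in YFP-positive cells, against 4.17 and 2.77 at day 10 and 8.60 and 9.07 at day 7 in YFP-negative cells. YFP-negative replicate 4, of day 10, came close to the naive arrays at 2.22 and 2.31. Pttg1, which encodes securin, the inhibitor of separase, behaved otherwise. It had 12.75 at day 10 and 12.94, 12.92 and 12.61 at day 7 in YFP-positive cells, against 13.43 and 13.03 at day 10 and 13.02 and 12.94 at day 7 in YFP-negative cells, and 13.24 and 12.83 in naive cells. Pttg1 was thus high everywhere and slightly lower in YFP-positive than in CXCR5lo PD-1lo cells, where it stood at 13.32, 13.23 and 13.23, without overlap, as for 14.1% of all genes. Its 3 kept probe sets all gave negative differences between YFP-positive and YFP-negative and between YFP-positive and CXCR5lo PD-1lo cells.

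Spindle checkpoint genes, whose products hold back anaphase until all kinetochores are attached, followed the common order. Ttk, the MPS1 kinase that starts checkpoint signalling, had 6.66 at day 10 and 9.95, 8.94 and 10.25 at day 7 in YFP-positive cells, against 2.99 and 3.25 at day 10 and 6.37 and 6.91 at day 7 in YFP-negative cells. It had 7.61, 2.71 and 2.53 in CXCR5lo PD-1lo cells and 2.42 and 3.29 in naive cells. Its YFP-negative arrays of day 10 lay in the range of the naive ones, and the YFP-positive array of day 10 lay just under the higher of the YFP-negative arrays of day 7. Bub1, a checkpoint kinase, ranged over 8.35 to 11.59 in YFP-positive, 4.49 to 9.19 in YFP-negative and 3.89 to 10.06 in CXCR5lo PD-1lo cells, against 2.18 to 2.28 in naive cells. Bub1b, which encodes the checkpoint protein BUBR1, ranged over 9.10 to 12.01, 6.22 to 9.79, 6.92 to 10.27 and 3.93 to 4.03 in the same 4 groups. Mad2l1, the gene of the inhibitor MAD2, was already well above the floor in naive cells at 8.90 and 8.17, and it ranged over 9.83 to 12.09 in YFP-positive and 9.04 to 10.46 in YFP-negative cells.

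The chromosomal passenger complex, which corrects faulty attachments and later organises cytokinesis, differed in how far its genes moved. Aurkb, its kinase, had 7.72 at day 10 and 11.31, 10.68 and 11.13 at day 7 in YFP-positive cells, against 5.76 and 2.88 at day 10 and 8.80 and 8.51 at day 7 in YFP-negative cells and 2.63 and 2.49 in naive cells. Birc5, which encodes survivin, ranged over 11.77 to 14.02 in YFP-positive and 8.82 to 12.28 in YFP-negative cells, against 6.54 to 6.66 in naive cells. Incenp, the scaffold of the complex, kept a narrow range, with 12.50 at day 10 and 13.59, 13.37 and 13.83 at day 7 in YFP-positive cells, against 12.65, 11.90 and 11.69 in CXCR5lo PD-1lo cells and 10.27 and 10.71 in naive cells. Of the CXCR5lo PD-1lo and naive arrays, only CXCR5lo PD-1lo replicate 1 reached into the YFP-positive range for Incenp. The YFP-negative arrays, at 12.10 to 12.88, reached into it as well. Cdca8, which encodes borealin, ranged over 10.80 to 13.27 in YFP-positive and 8.67 to 11.27 in YFP-negative cells, and its 2 naive arrays lay far apart at 3.44 and 7.24.

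Kinetochore genes differed widely in how far they ranged over the arrays. Cenpf, a large outer kinetochore protein gene, had 7.22 at day 10 and 10.10, 8.38 and 10.19 at day 7 in YFP-positive cells, against 7.07, 3.22 and 3.04 in CXCR5lo PD-1lo cells. These groups did not overlap, as for 8.75% of all genes. Cenpe, the kinetochore kinesin gene, had 7.29 at day 10 and 11.11, 9.29 and 11.38 at day 7 in YFP-positive cells, against 8.16, 3.78 and 3.73 in CXCR5lo PD-1lo cells, and the groups overlapped through CXCR5lo PD-1lo replicate 1. Spc25, a subunit of the NDC80 complex that binds microtubules, had 8.55 at day 10 and 11.67, 10.51 and 11.07 at day 7 in YFP-positive cells, against 5.99 and 5.18 at day 10 and 8.51 and 8.19 at day 7 in YFP-negative cells. It was the only one of the 46 genes whose YFP-positive and YFP-negative arrays did not overlap with both days pooled, near the share of 1.58% over all genes. The gap was narrow, with 8.547 in YFP-positive replicate 4 against 8.512 in YFP-negative replicate 2. Ndc80 itself had 8.03 at day 10 and 10.20, 10.31 and 11.32 at day 7 in YFP-positive cells, against 6.94 and 6.95 at day 10 and 9.09 and 9.37 at day 7 in YFP-negative cells, and 7.41 and 7.42 in naive cells. Its YFP-negative arrays of day 10 were below both naive arrays. Cenpa, the centromere histone gene, stayed within a narrower range, at 10.15 to 12.14 in YFP-positive and 10.27 to 11.36 in YFP-negative cells, against 9.35 to 9.55 in naive cells. The other subunits Nuf2 and Spc24 ranged over 9.09 to 12.06 and 7.90 to 11.38 in YFP-positive cells, against 4.72 to 9.75 and 4.39 to 8.80 in YFP-negative cells.

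Among the kinesin motors, Kif18a, which damps chromosome movement on the metaphase plate, had 7.30 at day 10 and 9.64, 8.94 and 9.75 at day 7 in YFP-positive cells, against 4.62 and 5.20 at day 10 and 7.21 and 7.55 at day 7 in YFP-negative cells. It had 6.40, 4.54 and 3.61 in CXCR5lo PD-1lo cells and 3.99 and 4.23 in naive cells. All YFP-positive arrays were above all CXCR5lo PD-1lo arrays, and CXCR5lo PD-1lo replicate 3 was as low as naive cells. Kif11, the motor that pushes spindle poles apart, ranged over 8.91 to 12.38 in YFP-positive and 5.58 to 9.85 in YFP-negative cells, against 2.63 to 2.78 in naive cells. Kif20a, a motor of the central spindle, ranged over 9.18 to 11.62, 6.77 to 9.37 and 4.23 to 5.57 in the same 3 groups. Kif23, which encodes the cytokinesis motor MKLP1, depended on its probe set in naive cells. The probe set used here gave 8.99 and 7.74 in naive cells, a level within the range of the YFP-negative arrays at 6.17 to 9.97, whereas a second kept probe set gave 4.44 and 2.76 in naive cells and 3.52 to 7.49 in YFP-negative cells.

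The central spindle and spindle assembly genes completed the list. Prc1, which bundles microtubules of the central spindle, ranged over 10.76 to 12.87 in YFP-positive and 8.65 to 10.93 in YFP-negative cells, against 4.15 to 5.49 in naive cells. Ect2, the activator of RhoA at the division plane, had 9.80 at day 10 and 11.92, 11.30 and 11.96 at day 7 in YFP-positive cells, against 10.23, 9.05 and 7.43 in CXCR5lo PD-1lo cells. The groups touched only where CXCR5lo PD-1lo replicate 1 exceeded the YFP-positive array of day 10. Anln, the gene of the ring protein anillin, ranged over 5.41 to 8.78 in YFP-positive and 2.59 to 6.29 in YFP-negative cells. Nusap1, a spindle microtubule bundler, had 10.17 at day 10 and 12.97, 11.95 and 12.89 at day 7 in YFP-positive cells, against 10.997, 8.13 and 6.39 in CXCR5lo PD-1lo cells and 2.62 and 2.40 in naive cells. Tpx2, an activator of Aurora A, ranged over 9.45 to 12.49 in YFP-positive and 5.88 to 10.19 in YFP-negative cells, and Top2a, the topoisomerase that untangles sister chromatids, over 10.86 to 13.45 and 8.92 to 11.71. Mki67, whose product Ki-67 coats mitotic chromosomes and is the usual mark of cycling cells, had 12.12 at day 10 and 14.05, 13.64 and 14.33 at day 7 in YFP-positive cells, against 11.50 and 10.29 at day 10 and 12.51 and 12.96 at day 7 in YFP-negative cells and 3.49 and 4.79 in naive cells. Every array of immunized mice was thus far above naive cells for Mki67, including the YFP-negative arrays of day 10, on which Ttk lay at the naive level.

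Between YFP-positive and YFP-negative cells, which asks how cells with and without the BCL6 reporter signal differ within the CXCR5hi PD-1hi gate, 44 of the 46 genes had higher means in YFP-positive cells, as had 50.3% of all genes. The median difference was log2 3.02, against 0.002 over all genes. None of the 46 passed an adjusted p of 0.05 in limma (43 had an unadjusted p under 0.05), where 0.121% of all genes were called in either direction. The largest differences were in Cdca5 (log2 4.25, SE 1.33, adjusted p = 0.224), Pbk (log2 4.10, SE 1.26, adjusted p = 0.223), the gene of a mitotic kinase, and Ttk (log2 4.07, SE 1.18, adjusted p = 0.21). The smallest adjusted p was 0.177. The exceptions were Pttg1 (log2 -0.30, SE 0.19, adjusted p = 0.931) and Cdc25b (log2 -0.03, SE 0.22, adjusted p = 1), which encodes a phosphatase that activates CDK1. Kinetochore genes had a median difference of 3.48, spindle checkpoint genes 3.37, kinases, cyclins and FOXM1 3.30, spindle assembly genes 3.14, kinesins 2.90, anaphase control genes 2.77, the passenger complex 2.32 and central spindle genes 2.21.

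The 2 groups are not balanced in day, so the days were also taken apart. At day 7 (n = 3 against 2), 45 genes had higher means in YFP-positive cells (55% of all genes) with a median difference of 2.16, and for 44 the groups did not overlap, as for 17.4% of all genes; 0 were called, against 0.141% of all genes (27 members had an unadjusted p under 0.05). At day 10 (n = 1 against 2), 43 were higher (33% of all genes) with a median of 2.34, and 0 were called, against 0.0705% (18 with an unadjusted p under 0.05). Between arrays of the same set, the median difference was 4.94 in set 1, which pairs day 7 with day 10, 1.77 and 2.22 in sets 2 and 3 at day 7, and 3.04 in set 4 at day 10. YFP-positive was the higher array for 44, 44, 45 and 44 genes in these 4 pairs; the lower ones were Pttg1 in all 4, Cdc25b in sets 1 and 2 and Cenpa in set 4. With the set as a block the differences kept their median of 3.02 and 28 of the 46 were called, 27 higher and Pttg1 lower, as were 15.5% of all genes in either direction. The replicate number as a block pairs the same YFP arrays and gave the same median, yet 0 were called, against 0.645% of all genes. These fits also differ in their arrays, since the replicate block left out the naive arrays. The cause of the difference in counts was not tested. Without YFP-positive replicate 4, the day 10 array, 21 were called, and the share of all genes called in that fit was not worked out. Without YFP-negative replicate 1, the array with myeloid and plasma cell transcripts, 0 were called and the median was 2.69.

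YFP-positive cells, set against CXCR5lo PD-1lo cells, had 12 of the 46 genes called higher and 0 lower, where 5.18% of all genes were called higher and 5.39% lower. Kif18a had the smallest adjusted p and rose 16.6-fold (log2 4.05, SE 0.81, adjusted p = 0.00314), followed by Ect2 (log2 2.34, SE 0.59, adjusted p = 0.0159) and Kif20a (log2 3.12, SE 0.81, adjusted p = 0.0189). The kinetochore genes Spc25 (log2 3.84, SE 1.02, adjusted p = 0.0222), Cenpe (log2 4.54, SE 1.30, adjusted p = 0.0335) and Cenpf (log2 4.53, SE 1.36, adjusted p = 0.0423) also rose. The kinase genes Pbk, by log2 5.02 (SE 1.37), Ttk, by 4.67 (SE 1.28), and Cdk1, by 2.84 (SE 0.84), passed with adjusted p-values of 0.0251, 0.0259 and 0.0393. Incenp, by 1.25 (SE 0.35), Ube2c, by 2.76 (SE 0.81), and Nusap1, by 3.49 (SE 1.05), passed with 0.0323, 0.0371 and 0.044. Over all 46 genes the median difference was 2.97, and 45 had higher means in YFP-positive cells, as had 43.7% of all genes. Pttg1 differed the other way without passing (log2 -0.45, SE 0.21, adjusted p = 0.211).

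The count of 12 moved with single arrays and with the fit. CXCR5lo PD-1lo replicate 1 had mitotic levels near those of YFP-positive cells; without it 35 genes were called, and without replicate 2 or 3 of that group 2 and 1 were. Without YFP-positive replicate 1, 2 or 3, 2, 4 and 1 genes were called, without YFP-positive replicate 4 there were 32, and without YFP-negative replicate 4, which enters only through the shared spread, 19. The share of all genes called was not worked out for fits with an array left out. With the replicate number as a block 35 were called (23.2% of all genes), with the set as a block 44, of which Pttg1 was lower (44.7% of all genes), and with day 7 and naive arrays alone 36 (11.3% of all genes), with a median of 3.64. Within sets 1, 2 and 3 the median difference was 1.54, 3.67 and 5.52, and 45 genes were higher in YFP-positive cells in each of the 3. CXCR5lo PD-1lo replicate 1 also had the highest Jchain value of its group, 10.5 against 7.91 and 7.72, and the part of the transcripts of other cells in these results was not tested.

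**Figure D3:**
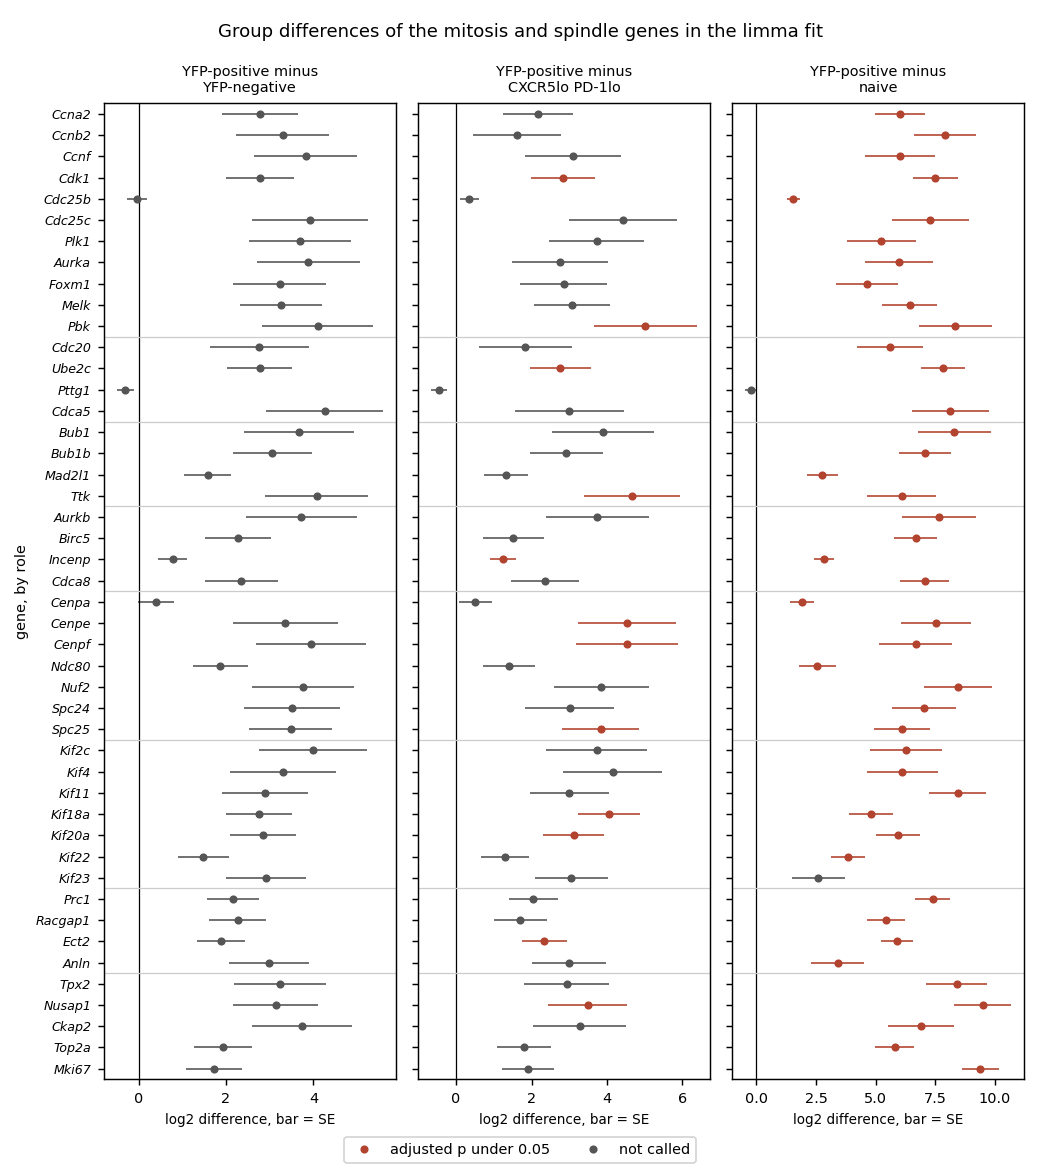
Log2 difference with its SE for each of the 46 genes between YFP-positive and YFP-negative cells (left), CXCR5lo PD-1lo cells (middle) and naive cells (right), with genes called at an adjusted p under 0.05 in red. None is called on the left, 12 in the middle and 44 on the right, and Pttg1 lies below 0 in all 3 panels.

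YFP-negative cells, set against CXCR5lo PD-1lo cells, had 0 of the 46 genes called, where 6.53% of all genes were, and 0 had an unadjusted p under 0.05 in limma. The median difference was 0.01, and 24 genes had the higher mean in YFP-negative cells, as had 40.3% of all genes. Kif18a (log2 1.29, SE 0.81, adjusted p = 0.524), Cenpe (log2 1.18, SE 1.30, adjusted p = 0.827) and Pbk (log2 0.93, SE 1.37, adjusted p = 0.895) stood highest, and Ccnb2 (log2 -1.68, SE 1.16, adjusted p = 0.593), Cdca5 (log2 -1.25, SE 1.44, adjusted p = 0.842) and Aurka (log2 -1.12, SE 1.27, adjusted p = 0.838) lowest. At day 7 alone (n = 2 against 3), 45 of 46 means were higher in YFP-negative cells with a median of 1.27, as were 45.3% over all genes. None was called there either, against 3.7% of all genes (2 members had an unadjusted p under 0.05), and the smallest adjusted p was 0.0882, for Kif18a (log2 2.53, SE 0.73). Within sets 2 and 3, both of day 7, the median difference was 1.55 and 3.07 with 45 genes higher in each. In set 1, where the YFP-negative array is from day 10, it was -3.19, and only Cdc25b and Pttg1 were higher. Without YFP-negative replicate 1 the median over all arrays was 0.28, without CXCR5lo PD-1lo replicate 1 it was 0.93, and without CXCR5lo PD-1lo replicate 3 it was -0.80. With the set as a block, Cdc25b alone was called, higher, where 30.5% of all genes were.

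**Figure D4:**
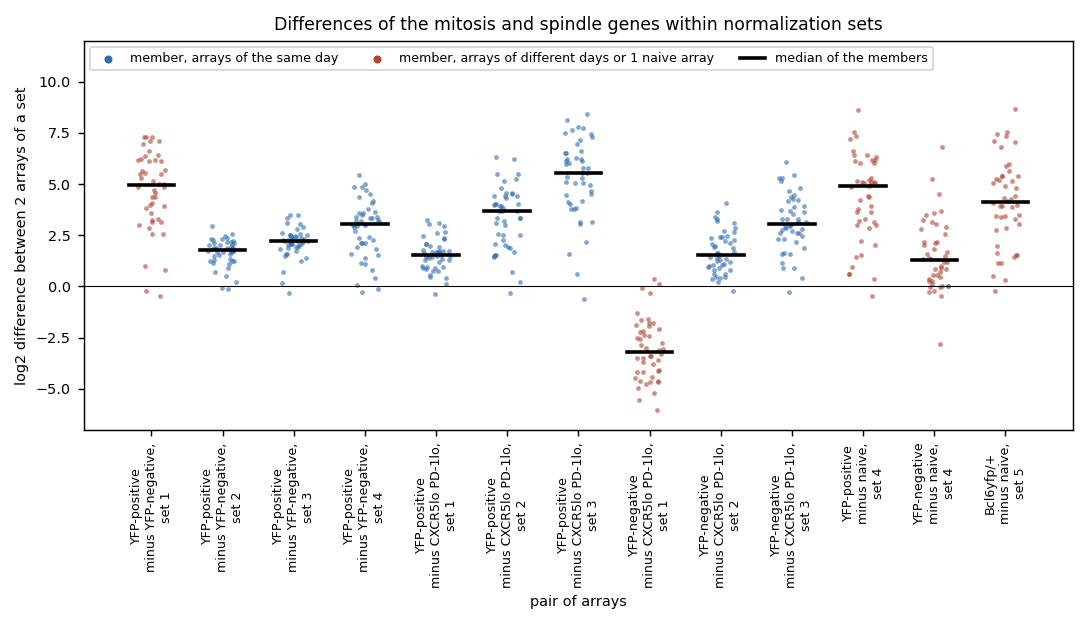
Difference in log2 value of each of the 46 genes between 2 arrays of the same normalization set, with the median as a bar, in blue where both arrays are of the same day and in red where days differ or 1 array is naive. The YFP-positive array is above its partner for 44 or 45 genes in every pair, and the YFP-negative array is above its CXCR5lo PD-1lo partner in sets 2 and 3 but below it in set 1 for most genes.

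Bcl6yfp/+ and Bcl6+/+ cells, which differ in 1 copy of the reporter allele, had 0 of the 46 mitotic genes called, and 0 of all 9930 genes were called by limma at an adjusted p of 0.05 (at an unadjusted p under 0.05, 0 of the 46 and 287 of all genes). Kif2c, the microtubule-depolymerising kinesin (log2 -1.56, SE 1.43, adjusted p = 0.868), Cdc25c, a CDK1-activating phosphatase (log2 -1.27, SE 1.54, adjusted p = 0.868), and Foxm1 (log2 -1.03, SE 1.24, adjusted p = 0.868) had the largest negative differences. Melk (log2 0.18, SE 1.08, adjusted p = 0.968), a kinase gene of cycling cells, Ect2 (log2 0.17, SE 0.63, adjusted p = 0.943) and Ttk (log2 0.09, SE 1.36, adjusted p = 0.99) had the largest positive ones. The median was -0.23 with 7 genes above 0, and over all genes the median was -0.26 with 11.3% above 0. After quantile normalization of all arrays the median was -0.03 for the members and -0.05 for all genes, and the sign turned for 14 of the 46. Within set 6 the 4 pairs of Bcl6yfp/+ and Bcl6+/+ arrays had medians of 0.04, -0.05, 0.16 and 0.00. Genotype and day are partly mixed here, since all Bcl6yfp/+ arrays but only 1 Bcl6+/+ array were of day 7. With day as a covariate the member median was -1.47, against -0.36 over all genes. With day 7 and naive arrays alone it was -0.01, against -0.30 over all genes. Both genotypes lay between the YFP-positive and YFP-negative means for 42 of the 46 genes.

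Against naive cells, most of the mitotic genes had higher means in each group of immunized mice. In YFP-positive cells 44 of 46 were called higher, where 22.4% of all genes were, with a median difference of 6.20 against 0.39 over all genes. Nusap1 (log2 9.49, SE 1.20, adjusted p = 1.59e-05), Mki67 (log2 9.395, SE 0.79, adjusted p = 1.54e-07) and Nuf2 (log2 8.47, SE 1.42, adjusted p = 0.000296) rose most. Kif23 (log2 2.60, SE 1.11, adjusted p = 0.0901) and Pttg1 (log2 -0.23, SE 0.24, adjusted p = 0.502) did not pass, while Cdc25b did (log2 1.54, SE 0.27, adjusted p = 0.000483). Of the 46 genes, 19 were under log2 4 on both naive arrays and so passed the filter through the immunized groups alone; the counts against naive cells are a description, and these folds depend on the floor. In YFP-negative cells 22 were called higher (16.5% of all genes) with a median of 3.17, led by Mki67 (log2 7.68, SE 0.79), Nusap1 (6.35, SE 1.20) and Kif11 (5.54, SE 1.20). In Bcl6yfp/+ and Bcl6+/+ cells together 37 were called higher (28.4% of all genes) with a median of 4.51, led by Nusap1 (8.21, SE 1.13), Mki67 (7.91, SE 0.74) and Tpx2 (7.05, SE 1.20). In CXCR5lo PD-1lo cells 18 were called higher (10.4% of all genes) with a median of 3.35, led by Mki67 (7.49, SE 0.83), Ccnb2 (6.30, SE 1.38) and Nusap1 (6.00, SE 1.26). Kif23 was at -0.32 (SE 1.11) in YFP-negative and -0.46 (SE 1.17) in CXCR5lo PD-1lo cells. These comparisons share the 2 naive arrays, and for fits with an array left out the share of all genes called was not worked out. Without naive replicate 1 the counts were 11 in YFP-negative and 8 in CXCR5lo PD-1lo cells, and without naive replicate 2 they were 14 and 11, and 24 in the Bcl6 genotypes; without YFP-negative replicate 1 there were 22 in YFP-negative cells.

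By role, all 11 kinase, cyclin and FOXM1 genes, all 7 kinetochore, 4 checkpoint, 4 passenger complex, 4 central spindle and 5 spindle assembly genes were called higher in YFP-positive than in naive cells, along with 6 of 7 kinesins and 3 of 4 anaphase control genes. Of all genes, 22.4% were called higher there. In YFP-negative cells the calls were 4 of 11 kinase, cyclin and FOXM1 genes, 2 of 7 kinetochore, 2 of 4 checkpoint, 3 of 4 passenger complex, 3 of 4 central spindle, 4 of 5 spindle assembly, 3 of 7 kinesin and 1 of 4 anaphase control genes. Of all genes, 16.5% were called higher there, and differences between these small roles were not tested. With the set as a block, which leaves few arrays that hold naive cells and another group together, the counts were 21 in YFP-positive cells (20 higher and Pttg1 lower) with a median of 4.72, 8 in YFP-negative cells with a median of 1.33, 14 in the Bcl6 genotypes and 4 in CXCR5lo PD-1lo cells. In the same order 47%, 41.6%, 24.7% and 23.4% of all genes were called in either direction. Within set 4, the YFP-positive array stood above naive replicate 1 by a median of 4.88 and the YFP-negative array by 1.27, and in set 5 the Bcl6yfp/+ array stood above naive replicate 2 by 4.13. Quantile normalization, which centres all genes, turned the split of calls over all genes in YFP-positive cells to 1746 higher and 2045 lower, against 2222 and 641 as deposited, and 43 members were called higher. The same splits were 1265 and 1538 against 1637 and 461 in YFP-negative cells, 1922 and 1320 against 2822 and 588 in the Bcl6 genotypes, and 636 and 737 against 1028 and 157 in CXCR5lo PD-1lo cells. After it Pttg1 was called lower in YFP-positive than in naive cells (log2 -0.65, adjusted p = 0.0056), and it was with the set as a block (log2 -0.49, adjusted p = 0.0249).

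Day 10 and day 7 were compared over the 3 groups that hold both days, with group as a term. At day 10, 44 of the 46 genes had lower means, with a median difference of -1.94 against -0.14 over all genes, of which 70.4% were lower. In limma 0 were called lower, where 0.0504% of all genes were (37 members had an unadjusted p under 0.05). Aurkb (log2 -3.00, SE 0.90, adjusted p = 0.178), Cdca5 (log2 -2.96, SE 0.99, adjusted p = 0.224) and Pbk (log2 -2.86, SE 0.93, adjusted p = 0.207) had the largest negative differences, and Pttg1 (log2 0.11, SE 0.18, adjusted p = 0.876) and Cdc25b (log2 0.08, SE 0.21, adjusted p = 0.926) were the 2 above 0. Each group's own values follow. Within YFP-positive cells (1 array against 3) the median was -2.56 and Ndc80 was called lower (log2 -2.58, SE 0.51, adjusted p = 0.029), as were 0.624% of all genes. Within YFP-negative cells (2 against 2) the median was -2.88, Ndc80 was again called lower (log2 -2.28, SE 0.44, adjusted p = 0.0352), as were 0.232% of all genes, and for 43 of the 46 genes the days did not overlap, as for 21.5% of all genes. Within Bcl6+/+ cells (2 against 1) the median was 0.34 with 38 genes above 0 (43.9% of all genes) and 0 called (0.0101% of all genes), and the 2 arrays of set 6 differed by a median of -0.13. The differences between these day effects did not pass for any member in limma (0, 17 and 9 members had an unadjusted p under 0.05, and 0, 0.0504% and 0.141% of all genes were called), with medians of -0.16 between YFP-negative and YFP-positive cells, -3.37 between YFP-negative and Bcl6+/+ cells (smallest adjusted p 0.393) and 2.81 between Bcl6+/+ and YFP-positive cells (smallest adjusted p 0.185). Without Bcl6+/+ replicate 3, 20 genes were called lower at day 10, without Bcl6+/+ replicate 1 there were 3 (Cdca5, Kif18a and Ndc80), and without CXCR5lo PD-1lo replicate 1 there was Kif20a. Shares of all genes called in these fits were not worked out.

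Neighbouring gene lists were followed in the same comparisons. Against CXCR5lo PD-1lo cells, YFP-positive cells had 9 of 26 other kinetochore and centromere genes called higher, 4 of 20 other checkpoint and mitotic kinase genes, 6 of 30 other spindle, centrosome and cytokinesis genes, 4 of 39 DNA replication genes, 2 of 18 condensin and cohesin genes and 0 of 15 genes of the anaphase-promoting complex, where 5.18% of all genes were. Their median differences were 1.81, 1.596, 1.52, 1.14, 0.14 and 0.13, against 2.97 for the mitotic members. Named examples were Stil, a centriole assembly gene (log2 4.995, SE 1.02, adjusted p = 0.00358), the kinesin Kif18b (4.74, SE 1.35), Mastl, the Greatwall kinase gene (4.47, SE 1.15), Plk4, the kinase of centriole duplication (2.12, SE 0.57), Cenpn (3.49, SE 0.64) and Knl1 (3.71, SE 1.13) of the kinetochore, the condensin genes Ncapg (2.78, SE 0.62) and Ncapd2 (1.72, SE 0.46), and the replication genes Tyms (3.09, SE 0.73) and Lig1 (2.71, SE 0.39). Between YFP-positive and YFP-negative cells 0 genes of any of these 6 lists were called in limma, where 0.121% of all genes were, and the medians ran in the same order of lists 1.74, 1.53, 1.48, 1.48, 0.23 and 0.22. At day 7 alone Tyms was called higher in YFP-positive cells (log2 3.19, SE 0.56, adjusted p = 0.0433 in limma), where 0.141% of all genes were called. Against naive cells YFP-positive cells had 20 of 26, 14 of 20, 19 of 30, 29 of 39, 7 of 18 and 5 of 15 called higher, where 22.4% of all genes were. The medians of the condensin and cohesin list and of the anaphase-promoting complex were thus near 0 between the sorted groups, as values and without a test of lists.

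Other probe sets of the same genes gave a similar picture. Of 35 further kept probe sets of 25 members, 34 had the same direction as the one used, both between YFP-positive and YFP-negative cells (median 2.86) and between YFP-positive and CXCR5lo PD-1lo cells (median 2.64), and also against naive cells (median 4.71). The 1 further probe set that differed in direction belonged to Cenpa against YFP-negative cells (-0.149), to Bub1b against CXCR5lo PD-1lo cells (-0.106) and to Pttg1 against naive cells (0.354, where the one used had -0.226). Cdc25b, with 1 probe set, had 13.64 at day 10 and 13.49, 13.65 and 13.36 at day 7 in YFP-positive cells, against 13.73 and 13.57 at day 10 and 13.79 and 13.18 at day 7 in YFP-negative cells, 13.36, 13.44 and 12.76 in CXCR5lo PD-1lo cells and 12.22 and 11.78 in naive cells. Its immunized groups overlapped, and only the naive arrays stood apart below them.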

How the data were processed

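Each of 19 sorted samples was hybridised to 1 Affymetrix array as biotin-labelled cDNA, per the labels' protocols. The authors deposited log2 values, 1 for each probe set, made with GCRMA per the submitters' processing notes; the sources used here give no version or settings of it. The values were used as deposited. Probe sets were named through GEO's platform annotation (34945 of 45101 carried 1 symbol). For each gene the probe set of highest mean was taken and kept at log2 4 on 2 arrays, which left 9930 genes. Group means were fitted to all 19 arrays with limma 3.58.1 in R 4.3.3 (lmFit, eBayes), and a gene was called at a Benjamini-Hochberg adjusted p under 0.05 over the 9930 genes; the method was tested on simulated data. Errors of differences are standard errors (SE), errors of levels are SDs. Arrays whose sorted values differed by under 0.06 on average were taken as 1 normalization set (the largest difference within a set was 0.0482, the smallest between sets 0.0666). Same-numbered arrays of both YFP groups and of CXCR5lo PD-1lo cells deviated together (r 0.27 to 0.87 for each pair), as did those of both Bcl6 genotypes (0.57 to 0.64). Arrays of different number ran from -0.65 to 0.39 and from -0.63 to 0.555. The replicate block takes the numbers to pair the samples, which no label states. By the labels, YFP-negative replicate 1 is of day 10, while replicate 1 of YFP-positive and CXCR5lo PD-1lo cells is of day 7. Replicates 1 and 2 of the Bcl6 genotypes also differ in day, so these numbers do not pair samples of the same day. Same-numbered YFP and CXCR5lo PD-1lo arrays also share a normalization set, so these correlations cannot tell paired samples from shared normalization. Alternatives were quantile normalization, other filters, the mean of a gene's probe sets, set, day or replicate number as a term, day 7 alone, a trended prior, each array left out and, chosen after seeing the data, the arrays of set 1 left out. The members and lists were chosen with earlier results of these data known. Named genes are a set chosen by role, every member called in a comparison with at most 12 such calls, the 3 largest differences of each sign, and up to 2 called genes of each sign per neighbouring list, of which some are given.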

Additional observations from a re-analysis of the deposited data

Results flagged for a closer look

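One value stood far from its group. Pbk had 8.69 in YFP-positive replicate 4, the day 10 array, against 11.20 to 11.71 on the 3 day 7 arrays of that group, and the gap made up 0.832 of the whole range. The low value was not particular to Pbk, since the mean over the 46 genes was 8.82 on that array against 10.72 to 11.66 on the other 3. In all, 94 combinations of group and gene in groups of 4 were looked at, where chance alone flags about 1 in 20. Without that array 21 of the 46 genes were called higher in YFP-positive than in YFP-negative cells, against 0 with it. The share of all genes called without it was not worked out.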

How the results depend on the processing

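The 46 genes kept a positive median difference between YFP-positive cells and each of the YFP-negative, CXCR5lo PD-1lo and naive groups under every alternative run, while the counts of called genes moved. For fits with an array left out, the share of all genes called was not worked out. With each array left out in turn, the count ran from 0 to 21 between YFP-positive and YFP-negative cells (median difference 2.36 to 3.72), 1 to 35 between YFP-positive and CXCR5lo PD-1lo cells (2.04 to 4.07), 0 to 0 between YFP-negative and CXCR5lo PD-1lo cells (-0.80 to 0.93) and 0 to 0 between the Bcl6 genotypes (-0.43 to 0.06). Against naive cells it ran from 37 to 45 for YFP-positive (5.81 to 7.13), 11 to 27 for YFP-negative (2.64 to 3.84), 24 to 40 for both Bcl6 genotypes (4.15 to 4.69) and 8 to 25 for CXCR5lo PD-1lo cells (2.20 to 4.25), and between days from 0 to 20 (-2.89 to -1.48). The highest count against naive cells came without YFP-negative replicate 4 for YFP-negative and without CXCR5lo PD-1lo replicate 3 for CXCR5lo PD-1lo cells, and the lowest came without naive replicate 1 for both and for YFP-positive cells. Between YFP-positive and CXCR5lo PD-1lo cells, 22 were called with quantile normalization, 2 with no filter, 44 with the set as a block, 34 with day as a covariate, 36 with day 7 and naive arrays alone, 20 with a trended prior, 35 with the replicate number as a block and 21 without set 1. Shares of all genes called in either direction were 19.7%, 4.64%, 44.7%, 11.4%, 11.3%, 11%, 23.2% and 8.47% in that order. In the main fit the share was 10.6%. The set as a block gave 28 between YFP-positive and YFP-negative cells, 1 between YFP-negative and CXCR5lo PD-1lo cells and, against naive cells, 21 for YFP-positive (median 4.72), 8 for YFP-negative (1.33), 14 for the Bcl6 genotypes and 4 for CXCR5lo PD-1lo cells (0.77). The shares of all genes called by it were 15.5%, 30.5%, 47%, 41.6%, 24.7% and 23.4% in the same order. Against naive cells, YFP-negative cells at day 7 alone gave 38 (4.65 as the median), where 16.8% of all genes were called. CXCR5lo PD-1lo cells without set 1 gave 9 against naive cells, where 5.87% of all genes were called. The replicate block, run for 5 comparisons and not for those against naive cells, changed no other count of members.

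Signs turned in some named genes. Cdc25b between YFP-positive and YFP-negative cells was 0.018 at day 7 alone and 0.04 without set 1. Between YFP-negative and CXCR5lo PD-1lo cells, Aurka was 0.21 and Cdca5 0.23 with day as a covariate, Aurka 1.10, Ccnb2 0.54 and Cdca5 1.44 at day 7 alone, and Aurka 0.53 and Cdca5 0.81 without set 1. Between the Bcl6 genotypes, the set block gave Cdc25c 0.60, Foxm1 0.066 and Melk -0.22, and day as a covariate Ect2 -0.65, Melk -1.26 and Ttk -1.42. Kif23 between YFP-negative and naive cells was 0.73 with the mean of its probe sets, 0.58 with day as a covariate, 1.22 at day 7 alone and 0.083 without set 1, and between CXCR5lo PD-1lo and naive cells 0.55 with the mean of its probe sets. With single arrays left out, Cdc25b ran from -0.158 to 0.044 between YFP-positive and YFP-negative cells and from -0.036 to 0.157 between days. Cdca5 ran from -2.22 to 0.15 and Pbk from -0.33 to 2.65 between YFP-negative and CXCR5lo PD-1lo cells. Melk ran from -0.49 to 0.54 and Ttk from -0.69 to 0.80 between the Bcl6 genotypes. Kif23 ran from -0.96 to 0.31 in YFP-negative and from -1.63 to 0.16 in CXCR5lo PD-1lo cells against naive cells. The cause of these moves was not tested.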
